A study of Mus musculus with 20 samples.

Results

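The 9 genes described here code for the core of the epithelial tight junction: the claudins Cldn1, Cldn3, Cldn4, Cldn6, Cldn7 and Cldn23, the 4-pass protein occludin (Ocln), and the cytoplasmic plaque proteins ZO-1 (Tjp1) and cingulin (Cgn). They were chosen by gene symbol from what is known of the junction, with earlier results of these data known. All 9 were found among the 19807 genes of the deposited tables. Dermis and epidermis were profiled apart by RNA-seq in 20 libraries. The wound libraries came from mice aged 4 to 5 weeks on a mixed strain, 2 days after the scab had come off, and both wound groups received tamoxifen. Shh wounds (n = 3 per tissue) were from K14-CreER; LSL-Shh mice, in which the Krt14 promoter drives an inducible Cre in basal epidermis and Cre turns on a Sonic hedgehog transgene there. WT wounds (n = 3 per tissue) were from control mice labelled wild type. The E14.5 group (n = 4 per tissue) was unwounded skin of wild-type embryos, also of mixed strain, with no transgene induced. Age and wounding therefore cannot be told apart wherever embryonic skin is set against a wound. A wound library may pool several wounds, and nothing in the labels says that libraries of a group came from separate animals, so that p-values measure the spread between these samples.

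Tight junctions seal the space between epithelial cells. Claudin strands in the membrane set which ions and solutes pass, occludin joins those strands, and ZO-1 and cingulin tie them to the actin cytoskeleton. In mature epidermis the seal lies in the granular layer, where claudin-1 is needed to keep water in, while in the embryo the superficial periderm covers an epidermis whose barrier is still forming. CAGGTG and its reverse complement CACCTG are E-boxes of the kind that Snail and Zeb repressors bind in claudin and occludin promoters.

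The promoters of 4 members that were higher in E14.5 than in WT wound epidermis under each scaling tried are shown because each holds such an E-box, given in capitals. Each window of 300 bases runs 5' to 3' and ends 50 bases after the RefSeq start, on build GRCm38.p6, whereas the deposited gene coordinates given further on are on NCBIM37.
Cldn3 chr5:134985964-134986263 (+ strand): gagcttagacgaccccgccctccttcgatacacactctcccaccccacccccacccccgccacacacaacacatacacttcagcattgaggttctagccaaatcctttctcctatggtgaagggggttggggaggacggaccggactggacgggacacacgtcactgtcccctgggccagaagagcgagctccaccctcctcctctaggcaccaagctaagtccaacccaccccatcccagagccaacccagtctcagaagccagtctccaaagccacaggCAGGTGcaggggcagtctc
Cldn6 chr17:23679115-23679414 (+ strand): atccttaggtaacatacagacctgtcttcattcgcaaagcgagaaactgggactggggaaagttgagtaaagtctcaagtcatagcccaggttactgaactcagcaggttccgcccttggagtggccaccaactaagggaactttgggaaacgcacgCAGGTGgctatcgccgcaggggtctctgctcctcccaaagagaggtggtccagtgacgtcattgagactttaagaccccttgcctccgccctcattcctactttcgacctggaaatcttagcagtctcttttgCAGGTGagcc
Cldn7 chr11:69965171-69965470 (+ strand): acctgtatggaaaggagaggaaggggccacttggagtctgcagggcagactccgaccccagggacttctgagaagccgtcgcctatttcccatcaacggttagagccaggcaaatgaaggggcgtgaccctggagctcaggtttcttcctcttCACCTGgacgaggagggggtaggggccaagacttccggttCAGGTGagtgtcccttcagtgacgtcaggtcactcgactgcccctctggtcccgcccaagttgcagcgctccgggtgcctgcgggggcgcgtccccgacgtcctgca
Ocln chr13:100552669-100552968 (- strand): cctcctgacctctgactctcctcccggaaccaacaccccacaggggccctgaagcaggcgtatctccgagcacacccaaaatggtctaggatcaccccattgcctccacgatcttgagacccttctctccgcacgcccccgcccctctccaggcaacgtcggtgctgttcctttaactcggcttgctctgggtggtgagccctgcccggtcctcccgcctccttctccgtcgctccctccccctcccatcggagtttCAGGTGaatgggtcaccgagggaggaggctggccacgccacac
Windows were found for 8 of the 9 genes, Cldn23 being the exception, and gave 10 windows because Cldn7 and Ocln have more than 1 start. Searched on both strands, the E-box CAGGTG or CACCTG was in 6 of the 10 windows, those of Cldn3, Cldn4, Cldn6, Cldn7 and Ocln, against 20.2% of all 32851 promoter windows. The other Cldn7 window (chr11:69964529-69964828), not shown, held no E-box. Both Ocln windows overlap and share an E-box, so that site is counted in each. The GC box GGGCGG was in 9 of 10 against 35.7% of all. The TATA motif TATAAA was in 0 of 10, against 13.6% of all windows. These are matches of letters only, and the windows shown are richer in G and C than the median of all windows (52.7%), except that of Cldn6 at 52.3%.

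Sequencing gave 1407498 to 8002999 reads in dermal and 2135041 to 10810590 in epidermal wound libraries, and 15663677 to 18745431 in E14.5 libraries. Values are reads of a gene per 1000000 reads (CPM), so 1 read is worth 0.0533 to 0.7105 CPM, and a value under about 1 CPM in a wound library rests on a few reads. WT epidermal libraries WT-9097 and WT-9229 and dermal libraries WT-9229 and Shh-9233 detected few genes for their tissue (11179 to 14178). The transgene checked the labels: Shh was at 7.35 to 10.7 CPM in Shh wound epidermis and at 0 to 1.5 in WT wound epidermis, and Ptch1, a Hedgehog target, was at 109 ± 15.9 against 38.5 ± 20.4 (SD, n = 3 each). Summed keratinocyte markers were at 93800 to 117000 CPM in WT wound, 98000 to 106000 in Shh wound and 18700 to 24900 in E14.5 epidermis, and at 319 to 3580 CPM across all dermal libraries. All 10 keratinocyte markers were detected in every epidermal library, and dermal libraries carry a small keratinocyte signal. A few very abundant genes can move all other CPM values. With TMM scaling, which offsets this, the median log2 fold change of all genes moved from 0.66 to 0.34 for E14.5 against WT wounds in epidermis and from 0.78 to 0.26 in dermis.

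Wound epidermis and embryonic epidermis differed in which members of the junction they expressed. Cldn3, Cldn6 and Cldn7, which were at 0 to 0.51 CPM in wound epidermis, were at 3.61 to 16.3 CPM at E14.5, and Ocln was also higher. Cldn23 and Cgn were lower at E14.5. Cldn1, the most studied epidermal claudin, was at nearly the same CPM in all groups.

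**Figure D1:**
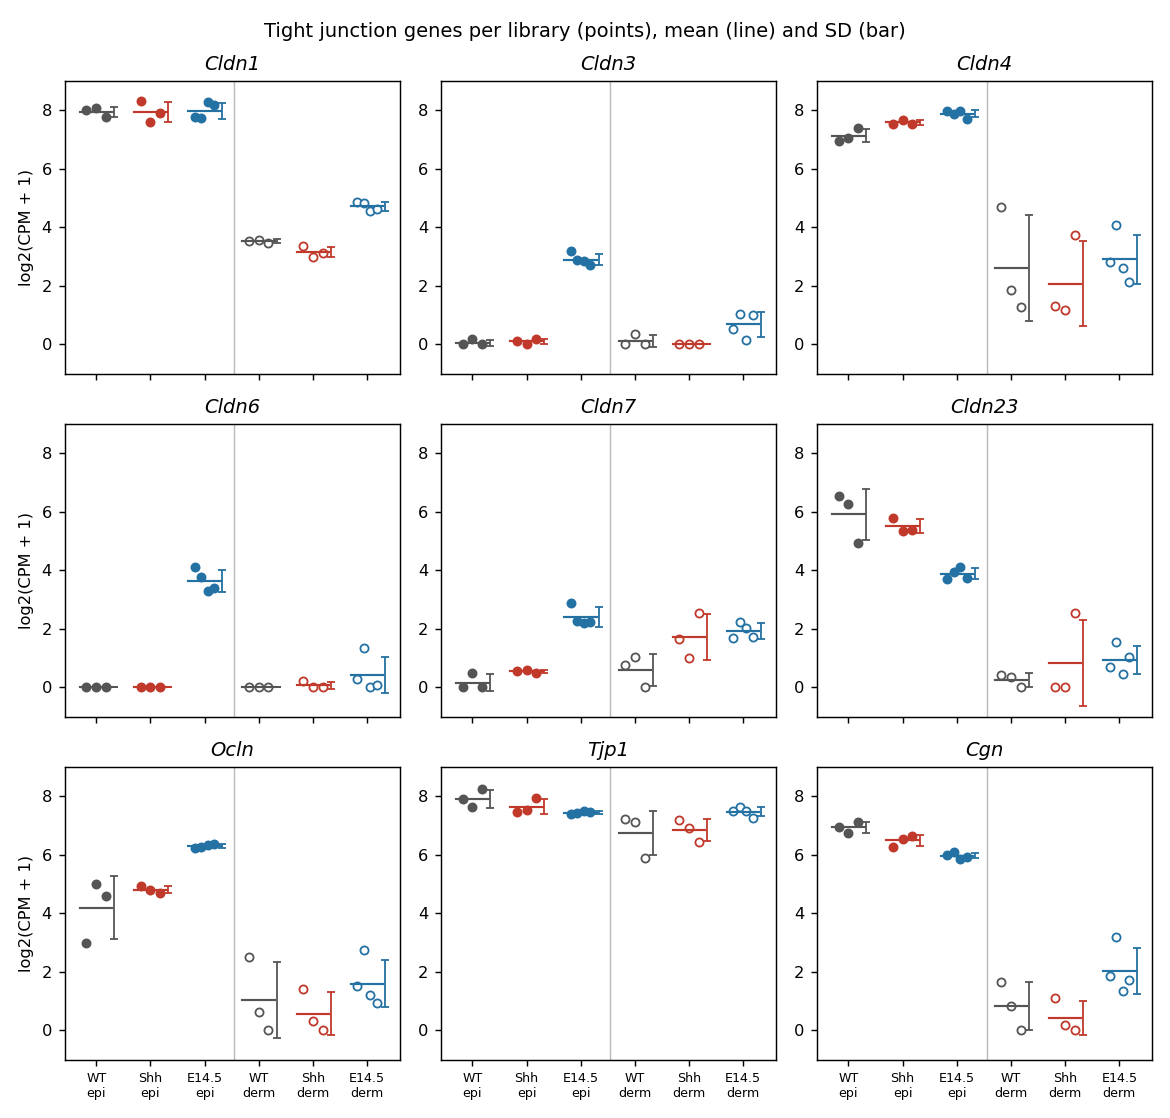
Level of each of the 9 genes as log2(CPM + 1) in every library (filled points epidermis, open points dermis), with the mean as a line and the SD as a bar, for WT wounds (n = 3), Shh wounds (n = 3) and E14.5 skin (n = 4). Cldn3 and Cldn6 rise above the baseline in the 4 E14.5 epidermal libraries, Cldn1, Cldn4, Cldn23, Ocln and Cgn lie higher in epidermis than in dermis, and Tjp1 is abundant in both tissues.

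Among the membrane claudins, Cldn6 (17:23816332-23819413, plus strand), a claudin known from embryonic epithelia, was at 0 reads in all 6 wound epidermal libraries and at 16.3, 12.7, 8.87 and 9.45 CPM in the E14.5 libraries. These values rest on 255, 209, 145 and 151 reads. Against a floor of 3 reads over the group, Cldn6 was at least 58.4-fold higher at E14.5 than in WT wounds and at least 109-fold higher than in Shh wounds. The floor covers counting error only. The fitted log2 fold change against WT wounds was 3.64 ± 0.34 (SE, limma, adjusted p = 8e-05), which on log2(CPM + 1) understates the change of a low gene.

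Cldn3 (5:135462084-135463342, plus strand), a sealing claudin of simple epithelia, followed the same order. It had 1 read in WT and 2 reads in Shh wound epidermis in total, at 0, 0.136 and 0 CPM and at 0.0925, 0 and 0.14 CPM. In E14.5 epidermis it was at 8.04, 6.36, 6.18 and 5.51 CPM, from 420 reads in all. The groups of wounds and embryos did not overlap, and the log2 fold change of E14.5 over WT wounds was 2.84 ± 0.29 (SE, limma, adjusted p = 0.00011).

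Cldn7 (11:69778281-69781387, plus strand), found along the lateral membrane in many epithelia, was at 0, 0.408 and 0 CPM in WT wounds and 0.463, 0.51 and 0.419 CPM in Shh wounds. Its E14.5 values were 6.45, 3.82, 3.61 and 3.69 CPM. The first of these, replicate 3, stood apart from the other E14.5 libraries, which nevertheless all lay above every wound library. The log2 fold change of E14.5 over WT wounds was 2.24 ± 0.31 (SE, limma, adjusted p = 0.000484).

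Ocln (13:101266462-101322673, minus strand) was at 6.94, 31.3 and 23.0 CPM in WT wounds, 29.6, 26.9 and 25.1 CPM in Shh wounds and 73.8, 75.8, 80.6 and 81.2 CPM at E14.5. The E14.5 libraries were all above the wound libraries, and the low value was that of WT-9097, a library with few detected genes. The log2 fold change was 2.11 ± 0.43 (SE, limma, adjusted p = 0.00345). It was 1.29 with both few-gene WT libraries left out, which leaves WT-9098 alone in its group, so no p-value is given.

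In the opposite direction, Cldn23 (8:36887766-36889613, minus strand) was at 92.5, 75.5 and 29.5 CPM in WT wounds, 54.7, 40.1 and 40.5 CPM in Shh wounds and between 12.1 and 16.5 CPM in the 4 E14.5 libraries. All wound libraries were above all E14.5 libraries, although WT wounds spread widely. Its log2 fold change of E14.5 over WT wounds was -2.02 ± 0.37 (SE, limma, adjusted p = 0.00219). Cgn (3:94464507-94590414, minus strand) was at 124, 106 and 137 CPM in WT wounds, 76.6, 92.6 and 99.6 CPM in Shh wounds and 63.3, 67.2, 57.2 and 60.1 CPM at E14.5, with no overlap between any pair of groups. Its log2 fold change was -0.97 ± 0.13 (SE, limma, adjusted p = 0.000438). The span of Cgn overlaps Selenbp2 on the other strand and BC021767 on its own, and how the counting treated strand is not stated in the sources, so its reads may include those of its neighbours.

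The other 3 members lay closer together. Cldn1 (16:26356728-26371927, minus strand) was at 258, 267 and 216 CPM in WT wounds, 315, 194 and 240 in Shh wounds and 218, 212, 308 and 288 at E14.5. These ranges overlapped fully, and the log2 fold change of E14.5 over WT wounds was 0.04 (95% interval -0.34 to 0.42), below the all-gene median of 0.66. With TMM scaling it was -0.49 (adjusted p = 0.0491), so that its direction depends on the scaling.

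Cldn4 (5:135420996-135422804, minus strand), another claudin of the suprabasal layers, was at 123, 132 and 168 CPM in WT wounds, 184, 203 and 186 in Shh wounds and 248, 235, 253 and 208 at E14.5. The 3 groups did not overlap. The log2 fold change of E14.5 over WT wounds was 0.75 ± 0.14 (SE, limma, adjusted p = 0.002), close to the all-gene median, and with TMM scaling it was 0.21 (adjusted p = 0.371) and no longer called.

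Tjp1 (7:72441051-72516125, minus strand) was at 239, 196 and 300.0 CPM in WT wounds, 177, 183 and 243 in Shh wounds and 166, 172, 180 and 175 at E14.5. Every WT library was above every E14.5 library. The log2 fold change was -0.48 ± 0.14 (SE, limma, adjusted p = 0.0216) and -1.01 (adjusted p = 0.00304) with TMM scaling. It was -0.18 with both few-gene WT libraries left out, which leaves WT-9098 alone in its group.

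Of the 9 members, 5 were called higher (Cldn3, Cldn4, Cldn6, Cldn7, Ocln) and 3 lower (Cldn23, Tjp1, Cgn) in E14.5 than in WT wound epidermis, where 59.1% of all 19751 genes tested were called, 47.7% higher and 11.4% lower. Most genes passed in this comparison, so the count of members called is not by itself a result about them. Cldn3, Cldn6, Cldn7 and Ocln were called higher, and Cldn23 and Cgn lower, also with TMM scaling, with edgeR and with DESeq2 on the recovered reads. Leaving out E14.5 replicate 3 or 4 took the call from Tjp1 (adjusted p = 0.0566 and 0.0518). Fewer cells of a type and less RNA per cell cannot be told apart in these bulk libraries. Summed markers of periderm and simple epithelia were at 363 to 447 CPM in E14.5 epidermis against 28.6 to 56 in WT and 19.8 to 31.9 in Shh wounds. Of these 6 markers, 4 were called higher at E14.5 than in WT wounds (Krt4, Krt8, Krt18 and Krt19). Krt4 and Krt19 carried most of the E14.5 sum, while Krt7, which made up most of the WT sum, was at 44.7 CPM in WT wounds and 33.8 at E14.5, and Muc1 was at 0.201 and 0.376. Of the 10 keratinocyte markers, 5 were called lower at E14.5 and 2 higher. The differentiation keratins Krt1 (42300 CPM in WT wounds and 4120 at E14.5) and Krt10 (34700 and 4080) were among the lower ones. Krt15 (440 ± 293 and 1440 ± 64.9, SD) and Trp63 (270 ± 131 and 564 ± 19.5, SD), both of the basal layer, were the higher ones. With TMM scaling Trp63 was not called higher. The basal keratins did not all rise, with Krt14 at 1160 and 757 CPM and Krt5 at 2190 and 2340. Markers of other cells differed between the same groups. Skeletal muscle markers summed to 129 to 502 CPM in E14.5 epidermis against 0 to 1.11 in wound epidermis, endothelial markers to 18.9 to 66.7 against 3.54 to 16.9, and immune markers to 13.0 to 26.2 against 377 to 631. The part of any of these in the junction values was not tested.

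**Figure D2:**
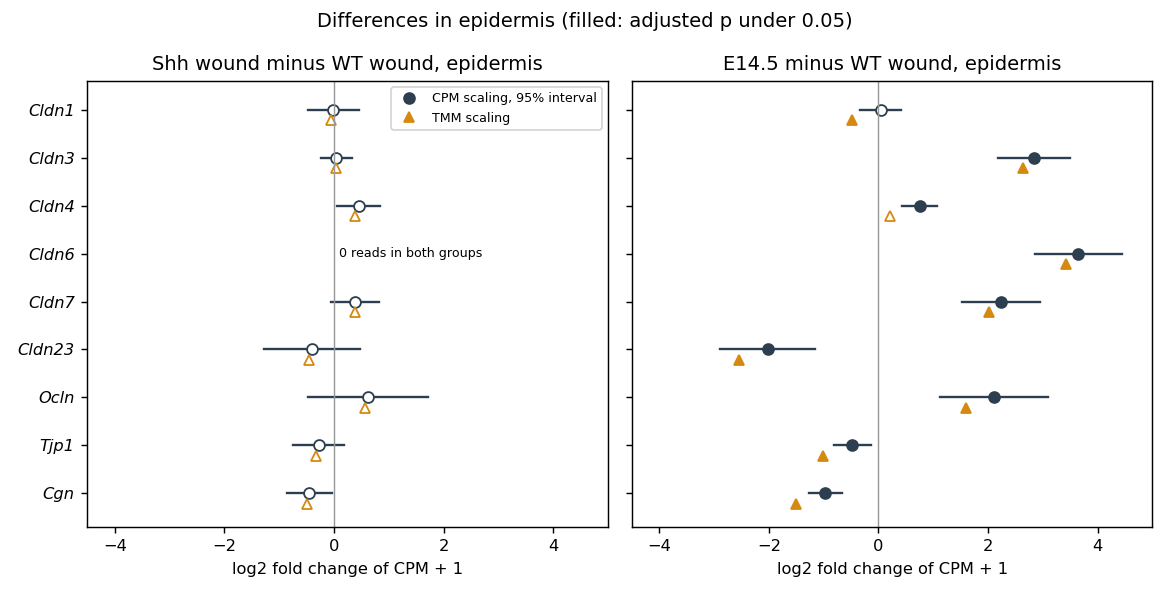
Log2 fold change, on log2(CPM + 1), of the 9 genes in epidermis for Shh against WT wounds and for E14.5 skin against WT wounds, with 95% intervals from limma; filled points passed an adjusted p of 0.05 and triangles give the value with TMM scaling. No gene passed for Shh wounds, and for E14.5 the points run from -2.02 (Cldn23) to 3.64 (Cldn6), with Cldn1 changing sign under TMM.

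Setting Shh against WT wounds addresses what Sonic hedgehog made by the epidermis changes in a healed wound. In epidermis none of the 8 members tested was called by limma, and 0% of the 19252 genes were (1846 had an unadjusted p under 0.05). The smallest limma adjusted p of any gene was 0.126, so Shh and Ptch1, which checked the labels, were not called either. A lack of a call in this fit therefore does not show that a gene is unchanged. On the recovered reads edgeR called 6 and DESeq2 64 genes, none of them a member. At an unadjusted p under 0.05 stood Cldn4 and Cgn. Cldn4 was 0.45 higher on the log2 scale in Shh wounds (95% interval 0.05 to 0.84, limma, adjusted p = 0.475), with all 3 Shh libraries above the WT libraries. Cgn differed by -0.45 (95% interval -0.86 to -0.03, limma, adjusted p = 0.488), with all 3 Shh libraries below.

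The intervals of the other members held 0. That of Cldn1 (-0.48 to 0.46) left room for small differences only, while that of Ocln (-0.48 to 1.72) did not exclude a large one. That of Cldn3 (-0.24 to 0.33) limits little. With 1 read in all in WT and 2 in Shh wounds, it is narrow because 1 CPM was added before the log. Cldn6 had no read in either group and could not be tested. The level of Cldn3 and Cldn6 seen at E14.5 was not found in Shh wound epidermis, where the deepest library held 10810590 reads.

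Set against E14.5 epidermis, which is the same 4 libraries as above, Shh wounds were lower for Cldn3, Cldn6, Cldn7 and Ocln. Log2 fold changes of Shh wounds over E14.5 were -3.64 for Cldn6, -2.8 for Cldn3, -1.85 for Cldn7 and -1.48 for Ocln (limma, adjusted p = 1.63e-07, 2.53e-07, 1.46e-05 and 2.63e-07). Cldn23 was 1.62 higher (adjusted p = 3.85e-06) and Cgn 0.52 higher (adjusted p = 0.00168). In all, 7 of 9 members were called, where 71.3% of all genes were, 19.6% higher and 51.7% lower. With TMM scaling, edgeR and DESeq2 all 9 were called, 5 higher and 4 lower, against 2 higher and 5 lower here. Cldn4 was called lower in Shh wounds at -0.3 (adjusted p = 0.0203), but was 0.3 higher with TMM scaling (adjusted p = 0.0234), so that its direction is set by the scaling. It also lost its call without Shh-9233 or without E14.5 replicate 3 or 5 (adjusted p = 0.0503 to 0.0636). Cldn1 (-0.05, adjusted p = 0.82) likewise turned to 0.55 with TMM scaling (adjusted p = 0.0364). Its CPM was flat, while the median gene was lower in Shh wounds by 0.45 on the log2 scale.

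Compared per length, as CPM per kilobase of merged exons, Cldn4 had the highest level of the 9 genes in the epidermis of every group, at 77.7 in WT wounds, 105 in Shh wounds and 130 at E14.5. Cldn1 was next, at 51.0, 51.5 and 53.0. The order below them differed between groups. In WT wounds Cldn23 (35.6 ± 17.6, SD, n = 3) and Tjp1 (31.4) followed and did not differ beyond their spread, then Cgn (20.4) and Ocln (4.83), while Cldn7, Cldn3 and Cldn6 were at 0.0698, 0.036 and 0. At E14.5 Ocln (18.4) stood above Cgn (10.3) and Cldn23 (7.52), followed by Cldn6 (6.87), Cldn3 (5.18) and Cldn7 (2.25). Cldn3, Cldn6 and Cldn7 were thus below Cldn4 and Cldn1 in level per length also at E14.5.

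Epidermis was then set against dermis within each group, to see which members follow the epithelium. Cldn1, Cldn4, Cldn23, Ocln and Cgn were called higher in epidermis in all 3 groups, except that Cldn23 in Shh wounds did not pass with DESeq2 (4.5, adjusted p = 0.111). Ocln in WT wounds did not pass in limma with the replicate number as a block (adjusted p = 0.0514). In WT wounds 6 of the 8 members tested were called higher, where 23.9% of all genes were called and 13.4% called higher. Log2 fold changes were 6.11 ± 0.55 for Cgn, 5.65 ± 0.7 for Cldn23, 4.53 ± 0.72 for Cldn4 and 4.42 ± 0.29 for Cldn1 (SE, limma, adjusted p = 1.23e-05, 0.00012, 0.000742 and 1.77e-06). Ocln was 3.16 higher (adjusted p = 0.0268). It lost its call without any of 4 libraries, dermal WT-9098 or WT-9229 and epidermal WT-9098 or WT-9229 (adjusted p = 0.0742 to 0.114).

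In Shh wounds 6 of 9 members were called higher in epidermis, where 33% of all genes were called and 19.6% higher, and in E14.5 skin 7 of 9, where 67.5% were, 35.6% higher. At E14.5 these included Cldn6 (3.22) and Cldn3 (2.22), both at 1.55 CPM or less in every dermal library. Tjp1, which binds actin in many cell types, was abundant in both tissues. Its dermal values were 150, 139 and 58.3 CPM in WT wounds, 146, 120 and 86.5 in Shh wounds and 179, 196, 181 and 151 at E14.5, which is 47.2%, 58.5% and 102% of the epidermal mean. Its log2 fold change of epidermis over dermis was 1.17 in WT wounds (adjusted p = 0.0403), 0.78 in Shh wounds (adjusted p = 0.0403) and -0.02 at E14.5 (95% interval -0.21 to 0.16). The calls in both wound groups were lost with TMM scaling (adjusted p = 0.157 and 0.051). The WT call was also lost without dermal WT-9098 or WT-9229 or any epidermal WT library, and the Shh call without dermal Shh-9231 or Shh-9233 or any epidermal Shh library.

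**Figure D3:**
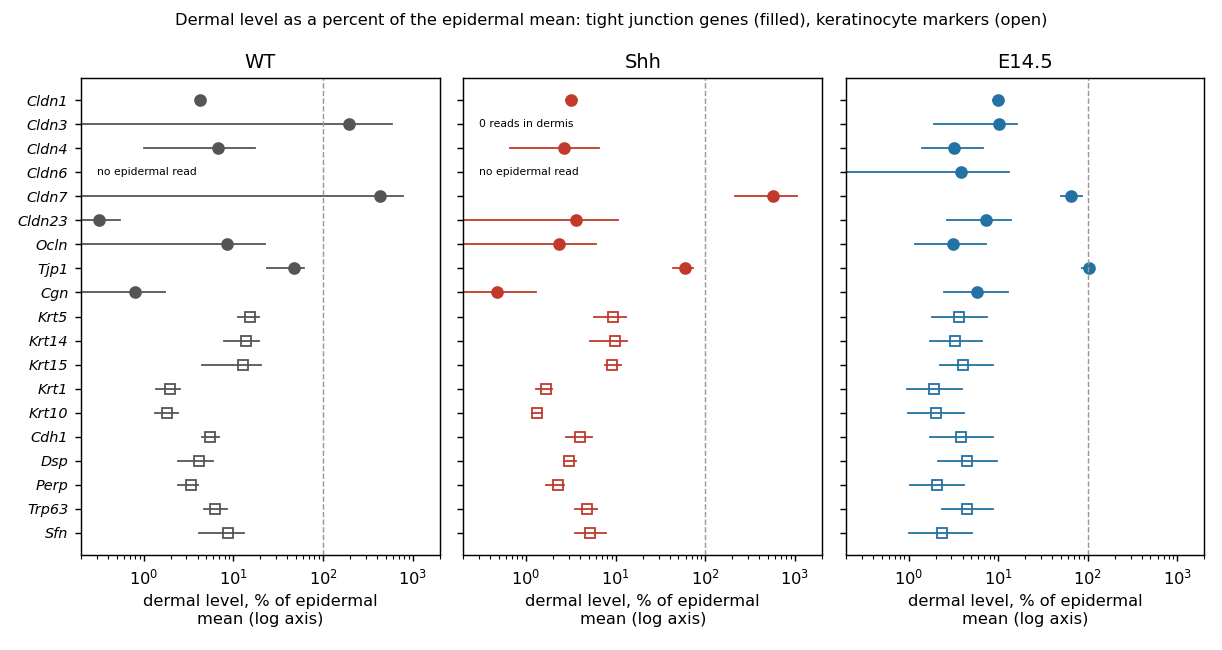
Dermal level as a percentage of the mean epidermal level in the same group (log axis) for the junction genes (filled) and for keratinocyte markers (open), with lines from the lowest to the highest dermal library; lines that reach the left edge go on to lower values or 0. Over the 3 groups, mean Cldn4 and Ocln lie at 2.31 to 8.47% and keratinocyte markers at 1.31 to 15.4%. Cldn1 lies at 3.18 to 4.26% in wounds and at 9.91% at E14.5, above the markers of that group (1.93 to 4.5%). Tjp1 lies at 47.2 to 102% and Cldn7 at 64.4 to 573%.

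Keratinocyte markers in dermis were at 1.83 to 15.4% of their epidermal mean in WT wounds, at 1.31 to 9.73% in Shh wounds and at 1.93 to 4.5% at E14.5. Mean dermal Cldn4 (6.79%, 2.66% and 3.23%) was within these ranges in each group, and so was mean Ocln (8.47%, 2.31% and 3.13%). Single libraries lay outside the ranges in each group. For Cldn4 they ran from 1.01 to 17.5% in WT wounds, 0.655 to 6.55% in Shh wounds and 1.42 to 6.81% at E14.5. For Ocln they ran from 0 to 22.8%, 0 to 6.02% and 1.17 to 7.3%. Mean dermal Cgn was below the marker ranges in both wound groups (0.801% and 0.473%) and above them at E14.5 (5.87%). Mean dermal Cldn23 was below them in WT wounds (0.316%), within them in Shh wounds (3.58%) and above them at E14.5 (7.24%). The WT value rests on 2 reads in all. The Shh value rests on 19 reads, with 2 of the 3 libraries at 0, so the order of these groups is not firm. Dermal Cldn1 was within the marker ranges in both wound groups (4.26% and 3.18%) and above them at E14.5 (9.91%). Whether the dermal reads of these genes came from keratinocytes left on the dermis was not tested.

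Cldn7 had a higher mean CPM in dermis than in epidermis in both wound groups. It was at 0.715, 1.07 and 0 CPM in WT wound dermis, 2.13, 1.0 and 4.85 CPM in Shh wound dermis and 2.19, 3.75, 3.09 and 2.28 CPM at E14.5. All 3 Shh wound dermal libraries were above the 3 Shh wound epidermal libraries. The log2 fold change of epidermis over dermis in Shh wounds was -1.18 (limma, adjusted p = 0.0715), which passed with DESeq2 (-2.69, adjusted p = 0.014), and without dermal Shh-9231 (-1.55, adjusted p = 0.034) or Shh-9233 (-0.77, adjusted p = 0.0308).

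In dermis no member was called between Shh and WT wounds, as 0 of 19430 genes were by limma (546 at an unadjusted p under 0.05), 0 by edgeR and 4 by DESeq2, no member among them. The smallest limma adjusted p was 0.958, so that Ptch1, at 94.4 CPM in Shh and 32.1 in WT wound dermis, was not called by limma either. Cldn7 was 1.12 higher on the log2 scale in Shh wounds, with a 95% interval of -0.28 to 2.52 (adjusted p = 0.958). Between E14.5 and WT wound dermis, 2 of 9 members were called higher, where 56% of all genes were called, 49.4% higher and 6.63% lower. Cldn1 was at 28.0, 27.7, 22.4 and 23.6 CPM at E14.5 and at 10.7, 10.9 and 9.95 CPM in WT wounds. These groups stood well apart, with a log2 fold change of 1.19 ± 0.21 (SE, limma, adjusted p = 0.00191). Cldn7 was 1.31 ± 0.33 higher (adjusted p = 0.00984). Relative to the all-gene median of 0.78 both were modest, and neither passed with TMM scaling (Cldn1 0.44, adjusted p = 0.129, and Cldn7 0.94, adjusted p = 0.0719). The count was 4 without WT-9097 (Tjp1 and Cgn in addition) and 4 without E14.5 replicate 5 (Cldn3 and Cldn23).

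Shh wound dermis had 9.18, 7.0 and 7.65 CPM of Cldn1, below every E14.5 library. Cldn1 was lower there than at E14.5 (log2 fold change -1.56, limma, adjusted p = 0.000685) and was still called with TMM scaling (-0.97, adjusted p = 0.00832). Cldn3, Tjp1 and Cgn were also called lower, giving 4 of 9 where 50.6% of all genes were called, 42.5% lower and 8.08% higher, but this count was 1 with TMM scaling. It was 1 without Shh-9231, 6 without Shh-9233 and 2 without E14.5 replicate 3 or 4. With TMM scaling Tjp1 turned to 0.03.

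The gap between epidermis and dermis differed between E14.5 skin and WT wounds for 6 members, where 21.2% of all genes passed this test of the interaction (8.46% with a higher and 12.7% with a lower difference of epidermis over dermis at E14.5). It was wider at E14.5 for Cldn6 by 3.22 and for Cldn3 by 2.27 on the log2 scale (limma, adjusted p = 0.000157 and 0.000438). It was narrower for Cldn1 (-1.15, adjusted p = 0.00396), Cldn23 (-2.71, adjusted p = 0.00333), Cgn (-2.16, adjusted p = 0.0175) and Tjp1 (-1.19, adjusted p = 0.0315). Cldn3 and Cldn6 did not pass this test with edgeR (adjusted p = 0.236 and 1.0) or DESeq2 (0.0518 and 0.0589), and Tjp1 did not with TMM scaling (0.0678). Tjp1 also lost its call without epidermal WT-9229, any E14.5 epidermal library or E14.5 dermal replicate 3, 4 or 5, and was at -0.76 without dermal WT-9229. The corresponding test between Shh and WT wounds called no member and 0% of all genes by limma (678 had an unadjusted p under 0.05, and DESeq2 called 14).

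The other genes of the junction, 66 in 7 lists drawn from knowledge of the pathway with earlier results of these data known, give the setting. In E14.5 against WT wound epidermis, the counts of each list stand beside an all-gene median of 0.66 and 47.7% of all genes called higher and 11.4% lower. Those shares are of limma without TMM scaling. Of the 19751 genes, 6638 were called higher and 3223 lower with TMM scaling, 4834 and 3670 with edgeR, and 5635 and 4139 with DESeq2. Of the other claudins, 6 of 8 were called higher and 1 lower (median 1.1), but 1 higher and 1 lower with edgeR and with DESeq2. Cldn8, a claudin that limits sodium leak in the kidney, was at 0 CPM in WT wounds, 0.968 in Shh wounds and 16.8 at E14.5 (log2 fold change 4.15 ± 0.31, SE, limma, adjusted p = 2.41e-05). Cldn12 was at 6.74, 15.1 and 54.5 CPM (3.75, adjusted p = 0.00522). Its WT libraries spread from 0 to 17.4 CPM (SD 9.34, n = 3), so the size of this change is not firm. The gene deposited under the symbol Cldn25 was lower, at 76.9 CPM in WT wounds and 43.3 at E14.5 (-0.82, adjusted p = 0.00332). Whether this older symbol matches the gene now called Cldn25 was not checked.

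Of the plaque proteins, 8 of 15 were called higher and 3 lower (median 0.9), the share called higher being near the 47.7% of all genes. With TMM scaling 7 were called higher and 6 lower, beside 6638 and 3223 of all genes. The multi-PDZ scaffold Mpdz (MUPP1) was at 10.2 CPM in WT wounds, 21.7 in Shh wounds and 101 at E14.5 (3.19 ± 0.17, adjusted p = 6.45e-06). Tjp3 (ZO-3) was lower at E14.5, at 127 CPM in WT wounds and 30.4 at E14.5 (-1.98, adjusted p = 0.000377), the direction also of Tjp1 and Cgn. Polarity proteins were called higher in 5 of 10, near the 47.7% of all genes, among them the Crumbs partner Mpp5 (Pals1) at 17.4 CPM in WT wounds and 82.9 at E14.5 (2.34, adjusted p = 0.000519).

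Regulators and partners of the junction went mostly the other way, with 8 of 14 lower and 2 higher (median -0.67), and 10 lower and 0 higher with TMM scaling. Klf4, a transcription factor required for the epidermal barrier, was at 698 CPM in WT wounds, 666 in Shh wounds and 101 at E14.5 (-2.79 ± 0.2, SE, limma, adjusted p = 2.36e-05). Prss8, the membrane protease needed for occludin processing and barrier function, was at 96.2, 114 and 31.2 CPM (-1.58, adjusted p = 0.000128), and Grhl1, a grainyhead factor, at 517, 471 and 262 (-0.99, adjusted p = 0.000173). All 14 genes of this list were called higher in epidermis than in dermis in each of the 3 groups.

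In the adherens junction list 4 of 8 were called higher, near the 47.7% of all genes, and 2 lower (median 0.15). With TMM scaling these were 2 and 4. Ctnnb1, or beta-catenin, was at 352 CPM in WT wounds and 1470 at E14.5 (2.06 ± 0.09, SE, limma, adjusted p = 2.47e-06), and the placode cadherin Cdh3 was at 70.2 and 202 (1.57, adjusted p = 0.000533). Cdh1, the E-cadherin of all epidermal cells, was at 952 ± 15.8 CPM in WT wounds (n = 3), 863 ± 109 in Shh wounds (n = 3) and 976 ± 63.7 at E14.5 (SD, n = 4). Its log2 fold change was 0.03 (adjusted p = 0.764), and -0.5 with TMM scaling (adjusted p = 0.0123). JAM proteins (3 of 5 higher, median 1.36) and the occludin relatives and angulins (2 of 6 higher, median 0.47) had none called lower, though with TMM scaling 1 gene of each was. With edgeR no JAM gene was called higher.

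**Figure D4:**
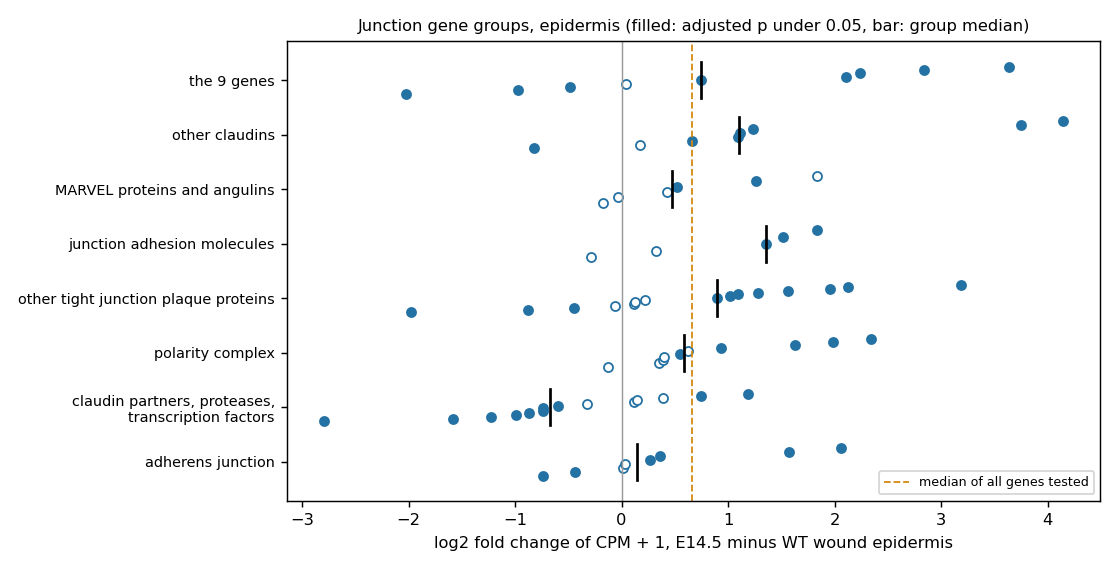
Log2 fold change of E14.5 over WT wound epidermis for the 9 junction genes and for 7 lists of other junction genes, each point a gene and each bar a list's median, with the median of all genes (0.66) as a dashed line. The list of partners, proteases and transcription factors has a median of -0.67, below the dashed line, and the other claudins one of 1.1.

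Between Shh and WT wound epidermis none of these genes was called by limma, and DESeq2 called 1 JAM gene. The smallest adjusted p-values were those of Cldn8, at 0 CPM in WT wounds and 0.968 ± 0.249 in Shh wounds (SD, n = 3 each, limma, adjusted p = 0.264), and of F11r (JAM-A), at 64.9 ± 7.54 and 111 ± 7.49 CPM (limma, adjusted p = 0.264).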

How the data were processed

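RNA-seq libraries were made from ribosome-depleted total RNA of separated dermis and epidermis. The submitters' processing notes name Bowtie, SAMtools and HTSeq and build NCBIM37, with no versions. The authors deposited CPM (scaled so that each library sums to 1000000) in 1 table per tissue and comparison. 100% of the values were whole reads within a tolerance of 0.01. The authors' deposited columns of fold change, p-value and false discovery rate were not used, nor was 1 column that matches no sample.

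Genes with at least 1 read were tested on log2(CPM + 1) by limma 3.58.1 in R 4.3.3 (moderated, with trend), with only the groups compared in the fit, and p-values were adjusted by Benjamini-Hochberg over all genes (threshold 0.05). Fold changes are on this scale, which understates those of low genes. Alternatives were a pseudocount of 0.5, a mean of at least 1 CPM, TMM, no trend, all 3 groups in 1 fit, DESeq2 1.42.0 and edgeR 4.0.16 on the recovered reads, a replicate block and leaving out each replicate. Leaving out both few-gene WT epidermal libraries was chosen after seeing the data and leaves 1 WT library, so only effect sizes are given for it. Claudins are similar in sequence and may share reads. The members and lists were chosen with earlier results of these data known. Named genes were all members, cell type markers (Cdh1 among them), and from each list genes with the smallest adjusted p. A gene of the plaque list is not reported here by name. The symbols Cldn2, Cldn9, Cldnd1 and Igsf5 had no match. The fits were tested on simulated data.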

Additional observations from a re-analysis of the deposited data

Results flagged for a closer look

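In 18 groups of 4 libraries, 2 had a library far from the others, where chance gives about 1 in 20 groups. Cldn6 was at 1.55 CPM in E14.5 dermis replicate 4 and at 0 to 0.213 in the other 3 libraries. Cldn7 was at 6.45 CPM in E14.5 epidermis replicate 3, above the 3.61 to 3.82 of the others.

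The difference between epidermis and dermis was itself different between E14.5 skin and WT wounds for 6 genes by a test of the interaction. In the same test 21.2% of all genes passed. Cldn3 and Cldn6 did not pass with edgeR or DESeq2, nor did Tjp1 with TMM scaling, edgeR or a replicate block. The differences on the log2 scale were 3.22 for Cldn6, 2.27 for Cldn3, -1.15 for Cldn1, -1.19 for Tjp1, -2.16 for Cgn and -2.71 for Cldn23.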

How the results depend on the processing

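For E14.5 against WT epidermis, 7 to 8 of 9 members were called without single libraries. Leaving out both few-gene WT libraries leaves only WT-9098 in its group, so no count is given for it. Scaling mattered most where the all-gene median is far from 0. With TMM the split of all calls in that comparison was 6638 higher and 3223 lower (9425 and 2255 without it), in dermis 5024 and 2759 (9741 and 1309). For Shh wounds against E14.5 it was 6057 and 7067 in epidermis (3869 and 10223) and 2984 and 4680 in dermis (1594 and 8393), and for tissue in WT wounds 1937 and 2543 (2590 and 2027).

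In dermis the 2 members called for E14.5 against WT wounds became 0 with TMM, 0 with edgeR and 0 with DESeq2, and the 4 for Shh wounds against E14.5 became 1 with TMM, 2 with no trend and 1 with edgeR. The 6 for tissue by stage became 3 with edgeR. For all genes, Shh against WT wounds gave 0 calls with limma, in epidermis 8 with a mean of at least 1 CPM, 6 with edgeR, 64 with DESeq2, 148 with all 3 groups in 1 fit and 15 without WT-9229, in dermis 4 with DESeq2, and tissue by genotype 14 with DESeq2.

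Signs turned under TMM, edgeR and DESeq2, in this order, as follows. For E14.5 against WT dermis, Cldn4 was -0.33, -1.1 and -1.03 and Tjp1 -0.08, -0.17 and -0.17, and Ocln was -0.35 with edgeR and -0.27 with DESeq2. For Shh against E14.5 dermis, Cldn7 was 0.28, 0.55 and 0.5, Cldn23 0.17, 1.27 and 1.41 and Tjp1 0.03, 0.05 and 0.01, and Cldn4 was 0.11 with edgeR and 0.12 with DESeq2. For Shh against WT dermis, Tjp1 was -0.02, -0.09 and -0.1, and Cldn6 was -0.4 with DESeq2. For E14.5 against WT epidermis, Cldn1 was -0.49, -0.47 and -0.51, and -0.08 without both few-gene libraries. For Shh against E14.5 epidermis, Cldn1 was 0.55, 0.57 and 0.63 and Cldn4 0.3, 0.3 and 0.37. For Shh against WT epidermis, Cldn3 was -0.1 with DESeq2. For tissue by genotype, Cgn was 0.13 with a pseudocount of 0.5 and 0.15, 1.1 and 0.89 with the other tools. The cause of these turns was not tested.

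Without single replicates, members called ranged from 2 to 4 for E14.5 against WT dermis, 1 to 6 for Shh against E14.5 dermis, 6 to 7 for Shh against E14.5 epidermis, 4 to 6, 5 to 6 and 7 to 8 for tissue in WT wounds, Shh wounds and E14.5, and 5 to 7 for tissue by stage. Signs turned within these ranges: for Shh against WT dermis, Cldn4 -1.37 to 0.5, Cldn23 -0.26 to 1.01, Ocln -0.98 to 0.27 and Tjp1 -0.33 to 0.35, and for E14.5 against WT dermis Cldn4 -0.37 to 1.33. For Shh against E14.5 dermis they were Cldn7 -0.59 to 0.18 and Cldn23 -0.94 to 0.33, and in epidermis Cldn1 -0.19 to 0.16 (Shh against WT), -0.05 to 0.13 (E14.5 against WT) and -0.23 to 0.12 (Shh against E14.5). For tissue they were Cldn3 -0.11 to 0.06 in WT wounds and Tjp1 -0.1 to 0.03 at E14.5, by stage Cldn4 -0.59 to 1.12, and by genotype Cldn4 -0.06 to 1.82, Tjp1 -0.63 to 0.05 and Cgn -0.45 to 0.38.

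Same-numbered dermal and epidermal libraries correlated at -0.01 to 0.39, not all over 0.1, and several correlated better with another number, so that the numbers were not read as pairs. With a replicate block, Ocln in WT wounds (adjusted p = 0.0514), Tjp1 in Shh wounds (adjusted p = 0.0657) and Tjp1 by stage (adjusted p = 0.0726) lost their calls. The depth of WT wound libraries limits what can be said of Cldn3, Cldn6 and Cldn7 there.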

Other observations

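E14.5 dermis replicate 4, in which Cldn6 stood apart, was also well above the other 3 E14.5 dermal libraries for some other members. For Cldn3 it was barely so, at 1.05 CPM against 0.124 to 1.02. Cldn4 was at 16.1 CPM there against 3.36 to 5.97, Ocln at 5.68 against 0.911 to 1.87, and Cgn at 8.06 against 1.55 to 2.67. Summed keratinocyte markers were at 1340 CPM in this library against 319 to 504 in the others, and the summed periderm and simple epithelium markers at 49.3 against 18.6 to 31.2. Cldn1, at 27.7 CPM against 22.4 to 28.0, and Tjp1, at 196 against 151 to 181, moved little or not at all. The part of the epithelial markers in these values was not tested.

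Genes whose log2(CPM + 1) followed that of a member most closely over all 20 libraries are given as a description, since the libraries fall into groups by tissue and stage and genes are not independent. For Cldn3 the nearest gene was Dkk4 (r = 0.987), a Wnt antagonist of hair placodes, at 0 CPM in WT wound, 0.0805 in Shh wound and 37.7 in E14.5 epidermis. Dkk4 was also nearest to Cldn6 (r = 0.983). For Cldn4 it was Pvrl4 (nectin-4, r = 0.992), for Cldn23 the protease gene Prss8 (r = 0.972) and for Cgn Tiam1 (r = 0.993).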
